A study of Homo sapiens with 6 samples.

Results

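The 52 genes described here encode proteins of focal adhesions, proteins that crosslink, assemble or contract actin filaments, and serum response factor (SRF) with its cofactors. They were chosen by gene symbol from the 23228 symbols of the count table, after PDLIM5, VCL and FLNA had been seen to be higher in cells given siRNA against ALKBH5. Those 3 genes are therefore described without a test. The other members were named for their function, but with the same comparison known, so their counts are also a description. All 52 symbols were in the table and 51 had enough reads to be tested. TES, which encodes the adhesion protein testin, had at most 8 reads in any library.

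U2OS is a cell line derived from a human osteosarcoma, a bone tumour. Its polyadenylated RNA was sequenced 48 hours after transfection by lipid. The 3 ALKBH5 knockdown libraries came from cells given siRNAs against ALKBH5, an enzyme that removes the methyl group of N6-methyladenosine from RNA, and the 3 control libraries from cells given scrambled siRNA. No second knockdown reagent or rescue was analysed here, and the sources used here name no siRNA sequences, so loss of ALKBH5 and other effects of the siRNAs cannot be told apart. All libraries came from 1 cell line, and the labels do not say whether replicates were separate cultures, so the tests measure only the spread between these libraries.

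Focal adhesions are the sites where integrins in the cell membrane hold the actin cytoskeleton to the matrix. Talin and kindlin bind the integrin tails, vinculin, paxillin, zyxin and tensin build the plaque on them, and filamins and alpha-actinins tie the actin filaments together. SRF is a transcription factor that binds the CArG box, a DNA element with an A- and T-rich core. Its cofactors MKL1 and MKL2 (also called MRTF-A and MRTF-B) are held back by monomeric actin, and many actin and adhesion genes are known SRF targets.

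The CArG box was searched for in the RefSeq promoter windows of GRCh38.p14, which run from 250 bases before to 50 bases after a gene's start. These windows are shown because they hold the element through which SRF is known to act, in genes that were higher and in a gene that was lower. Windows were found for 46 of the 52 members, 100 windows in all, since several genes have more than 1 start. ACTB, SRC, PTK2, PDLIM2, PARVA and MYOCD had no window and were not searched. Of these, ACTB and SRC were among the lower genes. The element is its own reverse complement as a pattern, so a match counts for both strands. An exact match lay in 11 of the 100 windows (11%), against 454 of 35116 windows of all genes (1.29%). Counted by gene, 9 of 46 members held a match (19.6%), against 438 of 27305 genes (1.60%). Known SRF targets were among the genes chosen, and the members have more windows per gene than the whole, so the difference is only a description. In the sequences below, read 5′ to 3′ on the gene's strand, capitals mark the CArG box.
FLNA, chrX:154374585-154374884, minus strand: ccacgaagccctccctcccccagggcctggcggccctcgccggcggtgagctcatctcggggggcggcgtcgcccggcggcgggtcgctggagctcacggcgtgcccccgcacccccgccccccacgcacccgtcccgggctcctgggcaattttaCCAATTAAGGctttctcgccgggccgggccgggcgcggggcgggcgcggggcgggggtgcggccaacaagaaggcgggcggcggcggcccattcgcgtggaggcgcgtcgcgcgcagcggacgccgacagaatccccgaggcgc
FHL2, chr2:105399002-105399301, minus strand: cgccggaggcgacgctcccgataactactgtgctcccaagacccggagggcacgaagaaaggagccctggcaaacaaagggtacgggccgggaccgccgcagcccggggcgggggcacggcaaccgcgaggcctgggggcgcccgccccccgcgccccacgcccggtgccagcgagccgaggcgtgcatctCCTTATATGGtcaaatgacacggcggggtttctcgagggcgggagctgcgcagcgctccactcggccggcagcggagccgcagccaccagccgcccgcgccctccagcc
SRF, chr6:43171019-43171318, plus strand: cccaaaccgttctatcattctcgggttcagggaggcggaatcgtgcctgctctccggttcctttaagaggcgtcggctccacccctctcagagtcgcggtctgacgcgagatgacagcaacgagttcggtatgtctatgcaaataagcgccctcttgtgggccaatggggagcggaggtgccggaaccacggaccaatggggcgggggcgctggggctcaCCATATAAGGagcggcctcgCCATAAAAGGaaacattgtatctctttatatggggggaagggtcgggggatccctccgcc
ACTG1, chr17:81512750-81513049, minus strand: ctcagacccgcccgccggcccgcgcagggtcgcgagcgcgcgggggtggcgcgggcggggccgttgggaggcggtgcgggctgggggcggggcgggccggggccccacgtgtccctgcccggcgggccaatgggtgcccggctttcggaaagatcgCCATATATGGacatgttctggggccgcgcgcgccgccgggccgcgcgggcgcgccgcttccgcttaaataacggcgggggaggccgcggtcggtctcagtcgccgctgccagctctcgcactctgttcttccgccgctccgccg

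In FLNA the box began 94 bases before the start, and in ACTG1 also 94 bases before it. FHL2 had its box 59 bases before this start, and a pair of overlapping windows further upstream held a different one. The SRF gene had 2 boxes in this window, 30 and 10 bases before its start. ACTN1, LPP, FHL1 and ROCK2 each had a match in 1 of several windows, shown here with the bases around it. The box began 171 bases before the start in ACTN1, 183 in LPP, 126 in FHL1 and 73 in ROCK2.
ACTN1: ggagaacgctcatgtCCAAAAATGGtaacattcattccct
LPP: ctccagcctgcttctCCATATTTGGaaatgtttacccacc
FHL1: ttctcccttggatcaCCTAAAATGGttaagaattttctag
ROCK2: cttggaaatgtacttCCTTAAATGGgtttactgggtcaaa

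TES held the remaining match. By the test described next, 6 of 27 members that were higher had a match (22.2%). So did 1 of 9 that were lower (11.1%) and 1 of 9 that did not pass (11.1%). The 27 include VCL, PDLIM5 and FLNA, which chose the set, and FLNA held 1 of the 6 matches. Higher members also had more windows per gene than lower members, so nothing is read from this split. No match was found in the windows of VCL and PDLIM5, which says only that the exact letters are not there. A match is a letter pattern and not a measured binding site, and the deposited data do not show which start these cells used.

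ALKBH5 itself stood at 19.4, 16.2 and 15.7 CPM (reads in genes, scaled to a common library size with TMM factors) in the knockdown libraries, against 138, 148 and 143 CPM in the scrambled libraries. The log2 fold change, knockdown over scrambled as everywhere here, was −3.06 (SE 0.10, edgeR adjusted p = 1.6e-09). By an exact 2-sided permutation test p was 0.1, the least possible with 3 libraries in each group. Reads in genes numbered 19748583 to 19919797 in the knockdown libraries and 18817181 to 23410007 in the scrambled libraries. Of 14504 genes tested over the whole table, 61.6% passed an adjusted p of 0.05, 30.8% higher and 30.8% lower. Uniquely placed reads outside genes made up 17.9% ± 0.66 in the knockdown libraries and 15.3% ± 0.23 in the scrambled libraries (SD, n = 3 each). Their part in the results was not tested. The 9 osteoblast markers summed to 3083 to 3766 CPM in knockdown and 3471 to 3688 CPM in scrambled libraries. Of the 6 that were tested 2 were higher and 2 lower. COL1A1 stood at 2017 ± 131 CPM in knockdown and 1526 ± 38.3 CPM in scrambled libraries, and SPARC at 1427.5 ± 275 CPM in knockdown and 2029.5 ± 78.1 CPM in scrambled libraries. SPARC and ALPL were the lower genes. COL1A1 and RUNX2 were the higher genes. RUNX2 stood at 42.0 ± 11.9 CPM in knockdown and 25.3 ± 4.23 CPM in scrambled libraries, groups that overlap. SP7, BGLAP and IBSP had at most 2 reads in any library. Of the leukocyte markers, PTPRC averaged 0.619 CPM in knockdown and 1.31 CPM in scrambled libraries, and CD3E was at 0. Endothelial markers (5 genes) summed to 2.36 to 3.58 CPM in knockdown and 6.85 to 9.61 CPM in scrambled libraries. Epithelial markers (7 genes), most of them KRT8 and KRT18 reads, summed to 626 to 649 CPM in knockdown and 538 to 635 CPM in scrambled libraries. Of the 6 that were tested 3 were higher and 2 lower. KRT8 was lower (261 ± 15.1 CPM in knockdown, 356 ± 18.6 CPM in scrambled libraries). KRT18 was higher (294 ± 19.5 CPM in knockdown, 180 ± 30.3 CPM in scrambled libraries). Muscle markers (6 genes), nearly all of them SMTN reads, summed to 151 to 245 CPM in knockdown and 136 to 144 CPM in scrambled libraries. Of these MYH11 and DES stayed below 1 CPM in every library and MYOG was at 0. Whether any of these lists bears on the results was not tested.

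Most of the plaque, crosslinker and LIM-domain genes were higher with ALKBH5 siRNA, while the actin genes ACTB and ACTG1 and the nonmuscle myosin heavy chain genes MYH9 and MYH10 were lower. Over all members 29 of 51 tested genes were higher and 11 lower, against 30.8% and 30.8% of all tested genes. Without the 3 genes that chose the set, the numbers were 26 and 11 of 48. The median log2 fold change of those 48 was 0.36, against 0.01 over all tested genes. By edgeR's test against a change of 1.5-fold, 15 of these 48 were higher and 4 lower, where 13.0% and 11.8% of all genes were (24.8% in either direction). In 28 of the 48 every knockdown library was above every scrambled library and in 12 below, against 33.5% and 33.9% of all genes (67.4% either way). Since the comparison was known when the set was drawn up, nothing is read from these shares. Adjusted p-values of the 26 higher members reached from 2.5e-09 (PTK2) to 0.021 (ENAH), and those of the 11 lower members from 2.4e-06 (TPM3) to 0.023 (SRC). Together the 52 genes took 2.80% ± 0.055 of reads in genes in the knockdown libraries and 2.08% ± 0.053 in the scrambled libraries. This share includes the 3 genes that chose the set, so nothing is read from it either. Of these, FLNA alone had 5695 ± 177 CPM in knockdown and 2252 ± 134 CPM in scrambled libraries. In bulk RNA a change in the mix of cells and a change in RNA per cell cannot be told apart.

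**Figure D1:**
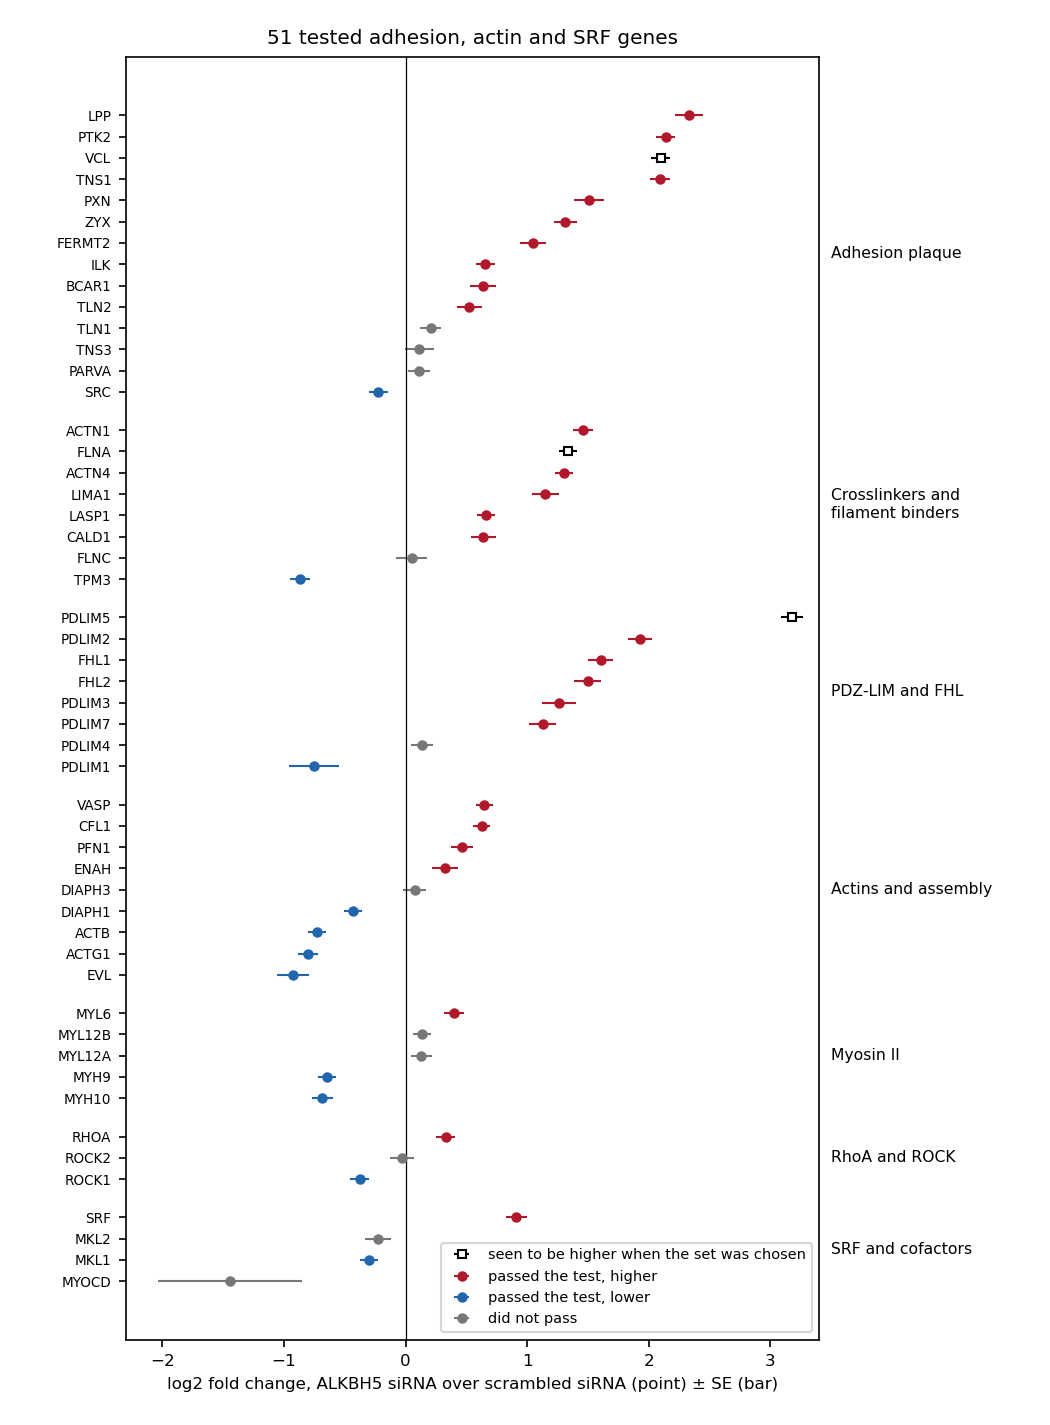
Log2 fold change of ALKBH5 siRNA over scrambled siRNA (x axis; point with a bar of ± SE) for the 51 tested genes, in role groups. Open squares are the 3 genes that chose the set. The plaque, crosslinker and LIM groups lie mostly to the right of 0, and ACTB, ACTG1, MYH9 and MYH10 to the left.

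Among the plaque proteins, apart from VCL, 9 of 13 tested genes were higher and 1 lower. By the test against 1.5-fold, 6 passed as higher. Of all tested genes 30.8% were higher, 30.8% lower and 13.0% passed as higher by the test against 1.5-fold. VCL encodes vinculin, which binds talin and actin and strengthens the adhesion under force. It had 1177, 1318 and 1221 CPM in the knockdown libraries, against 286, 299 and 282 CPM in the scrambled libraries, a fitted 4.28-fold difference (log2 fold change 2.10, SE 0.076). VCL is 1 of the 3 genes that chose the set, so nothing is read from this gap. VCL shares 1109 of its 6693 exon bases with AP3M1, a gene on the opposite strand, and whether the authors' counting used strand is not given in the sources used here. AP3M1 itself had 176 ± 17.9 CPM in knockdown and 144 ± 7.15 CPM in scrambled libraries (SD, n = 3 each). The part of this overlap in the VCL counts was not tested.

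PTK2 encodes focal adhesion kinase, the signalling kinase of the plaque. Its level was 402, 418 and 402 CPM in the knockdown libraries and 95.9, 85.8 and 95.5 CPM in the scrambled libraries (log2 fold change 2.14, SE 0.077, adjusted p = 2.5e-09). The SD over the knockdown libraries was 9.03 CPM, much less than the gap between groups. SRC, the kinase that works with it, went the other way by a small amount, with 75.1, 72.8 and 69.3 CPM in knockdown and 85.7, 84.5 and 84.0 CPM in scrambled libraries (log2 fold change −0.23, adjusted p = 0.023). Its call was lost without knockdown replicate 3 (adjusted p = 0.069), scrambled replicate 1 (0.064) or scrambled replicate 2 (0.058), over alternatives that ranged from 0.0056 to 0.069. BCAR1, an adaptor that SRC and focal adhesion kinase phosphorylate, was higher, at 204 ± 24.96 CPM in knockdown and 131 ± 15.1 CPM in scrambled libraries.

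LPP and ZYX are relatives that gather at adhesions and stress fibres. LPP had the largest change of the plaque genes among the members, with 191, 231 and 189 CPM in the knockdown libraries and 43.3, 43.9 and 34.5 CPM in the scrambled libraries, 5.03-fold (log2 fold change 2.33, SE 0.12). ZYX was 2.49-fold higher, at 453, 446 and 561 CPM in knockdown against 188, 192 and 207 CPM in scrambled libraries. In both genes every knockdown library was above every scrambled one. PXN, the scaffold paxillin, had 475, 464 and 626 CPM in knockdown and 181, 166 and 204 CPM in scrambled libraries. For both PXN and ZYX the highest knockdown value was that of replicate 3.

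The tensins, which join integrin tails to actin, split. TNS1 had 262, 303 and 281 CPM in knockdown and 63.6, 68.9 and 65.5 CPM in scrambled libraries (log2 fold change 2.10, SE 0.082, adjusted p = 3.8e-09). TNS3 had 156, 149 and 109.9 CPM in knockdown and 127, 133 and 123 CPM in scrambled libraries, groups that overlap, and did not pass (log2 fold change 0.11, SE 0.12, adjusted p = 0.42). It passed without knockdown replicate 3, its lowest knockdown library (log2 fold change 0.26, adjusted p = 0.016, with up to 0.89 under other alternatives). TNS1 made up 57.6% ± 5.1 of the tensin level of these 2 genes in knockdown cells and 25.4% ± 0.56 in scrambled cells, from CPM per kilobase of exon.

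Talins are the link from integrin tails to actin, and 1 of their 2 genes passed. TLN1 had 481, 573 and 488 CPM in knockdown and 446, 472 and 418 CPM in scrambled libraries and did not pass (adjusted p = 0.054), although its groups did not overlap. It passed without knockdown replicate 1 (adjusted p = 0.033) or knockdown replicate 3 (0.043), in a range of 0.015 to 0.60 over all alternatives. TLN2 was higher, at 102 ± 14.2 CPM in knockdown and 70.8 ± 5.46 CPM in scrambled libraries. FERMT2, the integrin activator kindlin-2, was 2.07-fold higher, with 382, 448 and 332 CPM in knockdown and 174, 205 and 184 CPM in scrambled libraries. ILK, the pseudokinase at the core of a plaque complex with parvin, was 1.58-fold higher (304 ± 21.1 CPM in knockdown, 193 ± 2.82 CPM in scrambled libraries). Its partner PARVA stood at 113 ± 10.2 CPM in knockdown and 105 ± 7.15 CPM in scrambled libraries (log2 fold change 0.11, SE 0.089, adjusted p = 0.29).

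**Figure D2:**
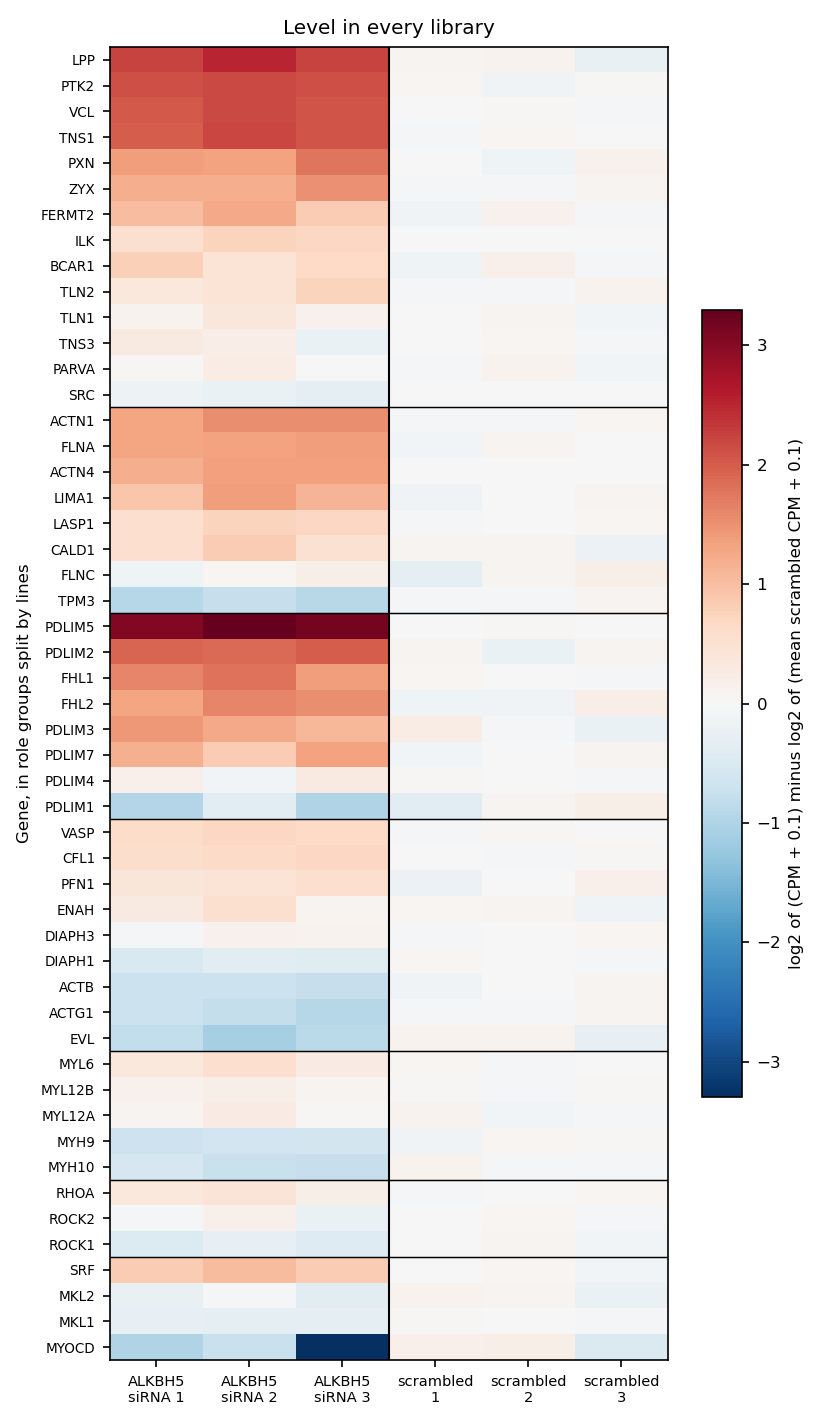
Level of the 51 tested genes in each library, as log2 of CPM + 0.1 minus log2 of the scrambled mean + 0.1. Knockdown libraries stand left of the line. Within a group the libraries look alike for most genes. In MYOCD knockdown replicate 3, with 2 reads, stands apart from the other knockdown libraries.

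Leaving FLNA aside, the 7 crosslinkers and filament-binding proteins held 5 higher genes and 1 lower, against 30.8% of all tested genes each way. FLNA, an X-linked gene, encodes filamin A, a dimer that crosslinks actin into networks and binds integrins. It had 5526, 5681 and 5879 CPM in the knockdown libraries and 2129, 2394 and 2234 CPM in the scrambled libraries, 2.53-fold, which made it the crosslinker with the most reads in both groups. FLNC, its muscle-enriched relative, had 245, 283 and 308 CPM in knockdown and 216, 285 and 308 CPM in scrambled libraries, with overlapping groups (log2 fold change 0.05, SE 0.13, adjusted p = 0.76). FLNA made up 95.7% ± 0.35 of the level of these 2 filamins per kilobase of exon in knockdown cells and 90.05% ± 1.4 in scrambled cells.

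ACTN1 and ACTN4 encode the nonmuscle alpha-actinins, rod-like dimers that hold actin filaments side by side, and both genes were higher. ACTN1 had 1926, 2253 and 2249 CPM in knockdown and 758, 759.9 and 821 CPM in scrambled libraries (log2 fold change 1.46, SE 0.083, adjusted p = 4.2e-08). ACTN4 had 982, 1090.4 and 1105 CPM in knockdown and 427, 429 and 432 CPM in scrambled libraries (log2 fold change 1.30, SE 0.074, adjusted p = 4.2e-08). Per kilobase, ACTN1 made up 70.7% ± 0.56 of the pair in knockdown cells and 68.4% ± 0.88 in scrambled cells, shares that did not overlap.

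LIMA1, which bundles filaments and slows their turnover, was 2.22-fold higher (329, 459 and 379 CPM in knockdown, 163, 177 and 187 CPM in scrambled libraries). LASP1, an actin-binding LIM protein, and CALD1, the actomyosin inhibitor caldesmon, were higher by less, 1.58-fold and 1.56-fold. TPM3, a tropomyosin that coats filaments, was lower, with 115, 132 and 119 CPM in knockdown and 212, 217 and 236 CPM in scrambled libraries (log2 fold change −0.87, SE 0.082, adjusted p = 2.4e-06). Counts of TPM3 are uncertain where pseudogenes share its sequence.

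The PDZ-LIM proteins bind alpha-actinin and bring kinases and other partners to actin. PDLIM5 had the largest fold change of all members, with 259.9, 309 and 281 CPM in the knockdown libraries and 30.9, 32.1 and 31.0 CPM in the scrambled libraries, 9.04-fold (log2 fold change 3.18, SE 0.089). The SD was 24.7 CPM over the knockdown libraries and 0.658 CPM over the scrambled libraries. Of the other 7 genes of this group 5 were higher and 1 lower, against the same 30.8% each way.

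PDLIM2 had 151, 148 and 159.9 CPM in knockdown and 43.2, 34.5 and 43.1 CPM in scrambled libraries (3.80-fold). PDLIM3 was 2.41-fold higher, at 39.6, 35.1 and 31.4 CPM in knockdown against 17.4, 14.1 and 12.6 CPM in scrambled libraries, and PDLIM7, known as enigma, 2.18-fold, at 339, 266 and 372 CPM in knockdown against 139.7, 149 and 159 CPM in scrambled libraries. None of these 3 genes overlapped between groups. PDLIM4 did not pass (187, 157 and 202 CPM in knockdown, 171, 166 and 161 CPM in scrambled libraries, adjusted p = 0.23), though it did without knockdown replicate 2 (log2 fold change 0.23, adjusted p = 0.020, with up to 0.63 under other alternatives). PDLIM1 was lower, with 5.63, 8.68 and 5.53 CPM in knockdown and 8.82, 11.8 and 12.9 CPM in scrambled libraries (log2 fold change −0.75, SE 0.21, adjusted p = 0.0073). Of the PDZ-LIM members it had the lowest mean CPM in both groups. In scrambled replicate 3, though, it had 246 reads and PDLIM3 240.

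FHL1 and FHL2 encode LIM-only proteins, and FHL2 is known to bind SRF. FHL1 had 529, 600.0 and 448 CPM in knockdown and 179.9, 174 and 164 CPM in scrambled libraries (log2 fold change 1.60, SE 0.10). FHL2 had 398, 491 and 466 CPM in knockdown and 145, 149 and 187 CPM in scrambled libraries, 2.82-fold. FHL1 was 3.04-fold higher, close to FHL2, and in both every knockdown library lay above every scrambled one.

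Both cytoplasmic actin genes were lower, unlike most genes of actin-binding proteins above. ACTB, beta-actin, had 2509, 2517 and 2438 CPM in the knockdown libraries and 3797, 4183 and 4379.6 CPM in the scrambled libraries (log2 fold change −0.73, SE 0.074, adjusted p = 4.5e-06). ACTG1, gamma-actin, had 1294, 1227 and 1098 CPM in knockdown and 2052, 2003 and 2246 CPM in scrambled libraries (log2 fold change −0.80, SE 0.083, adjusted p = 4.8e-06). Groups did not overlap in either gene, and ACTB kept a like share of the pair per kilobase, 71.2% ± 1.4 in knockdown and 70.1% ± 1.3 in scrambled cells. Their summed level was 1756 ± 62.4 CPM per kilobase in knockdown cells and 2950.3 ± 187 in scrambled cells (SD, n = 3 each). The coding sequences of these genes and of their many pseudogenes are nearly alike, and reads listed as not uniquely placed are not in the gene counts. Such placements made up 33.0% ± 0.18 of entries in the knockdown libraries and 33.3% ± 0.33 in the scrambled libraries.

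Of 7 regulators of actin assembly 4 were higher, 2 lower and 1 did not pass, where 30.8% of all tested genes were called in each direction. CFL1, the filament-severing protein cofilin, had 1431, 1498 and 1546 CPM in knockdown and 974, 934 and 988 CPM in scrambled libraries, 1.55-fold. PFN1, profilin, which feeds monomers to growing filaments, was 1.38-fold higher (630.4 ± 34.6 CPM in knockdown, 457 ± 55.0 CPM in scrambled libraries). Both have pseudogenes that make their counts uncertain.

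The Ena/VASP proteins, which keep filament ends growing, split. VASP was 1.57-fold higher, at 241, 252 and 249.96 CPM in knockdown and 153, 163 and 158 CPM in scrambled libraries. ENAH was 1.25-fold higher (adjusted p = 0.021), a call lost without knockdown replicate 2 (adjusted p = 0.086) or scrambled replicate 3 (0.082), and with library totals in place of TMM (0.055), in a range of 0.0011 to 0.16 over all alternatives. EVL was lower, at 16.6, 13.6 and 15.6 CPM in knockdown and 31.6, 31.4 and 24.2 CPM in scrambled libraries (log2 fold change −0.93, SE 0.13). Of the formins, which nucleate unbranched filaments, DIAPH1 was lower (122 ± 5.57 CPM in knockdown, 165 ± 3.60 CPM in scrambled libraries) and DIAPH3 overlapped between groups (41.7 ± 2.62 CPM in knockdown and 39.6 ± 1.47 CPM in scrambled libraries, adjusted p = 0.51). The 4 members that passed as lower by the test against 1.5-fold were ACTB, ACTG1, EVL and TPM3. This count was 2 without knockdown replicate 3 and 2 without scrambled replicate 2.

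**Figure D3:**
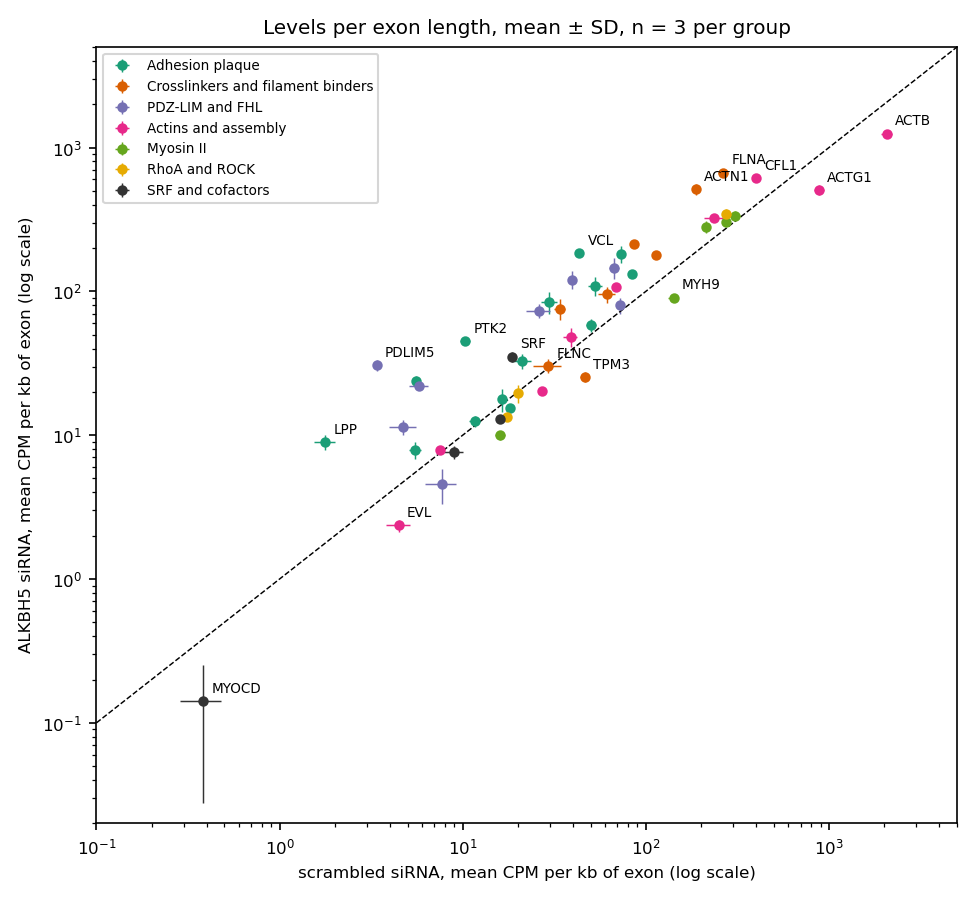
Mean CPM per kilobase of exon in knockdown libraries (y axis) against scrambled libraries (x axis), both log scales, with bars of ± SD over 3 libraries and a dashed line of equal level. TES is left out. FLNA, ACTN1 and VCL lie above the line at high levels, and ACTB, ACTG1 and MYH9 below it.

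Nonmuscle myosin II contracts the filaments. Its heavy chain MYH9 had 679, 699 and 712 CPM in knockdown and 1011, 1134 and 1132 CPM in scrambled libraries (log2 fold change −0.65, SE 0.074, adjusted p = 1.1e-05). MYH10 had 84.2, 74.2 and 73.8 CPM in knockdown and 134, 120.0 and 119 CPM in scrambled libraries (log2 fold change −0.69, SE 0.087, adjusted p = 2.6e-05). Both fell by a like factor. MYH14, the third such heavy chain gene and no member, was lower as well, at 10.6 ± 1.58 CPM in knockdown and 53.8 ± 6.10 CPM in scrambled libraries. MYH14 was named after its value was seen, from a list otherwise not reported here. MYH9 held 90.1% ± 0.88 of its pair with MYH10 per kilobase in knockdown and 89.8% ± 1.2 in scrambled cells.

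No light chain gene passed as lower. The essential chain MYL6 was 1.32-fold higher (657 ± 63.4 CPM in knockdown, 498 ± 18.9 CPM in scrambled libraries). The regulatory chains MYL12A (474 ± 40.1 CPM in knockdown and 434 ± 30.8 CPM in scrambled libraries, adjusted p = 0.20) and MYL12B (584 ± 21.5 CPM in knockdown and 532 ± 22.3 CPM in scrambled libraries, adjusted p = 0.12) did not pass. They are close copies of each other, so the split of reads between them is uncertain.

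RHOA, the GTPase that drives stress fibre formation, was 1.26-fold higher (757, 807 and 689 CPM in knockdown, 583, 589 and 619.6 CPM in scrambled libraries). Of its kinases, ROCK1 was lower (127 ± 8.22 CPM in knockdown, 165 ± 10.3 CPM in scrambled libraries, log2 fold change −0.38, SE 0.081) and ROCK2 overlapped (172 ± 24.7 CPM in knockdown and 176 ± 6.98 CPM in scrambled libraries, adjusted p = 0.79). ROCK1 made up 40.7% ± 2.3 of the pair per kilobase in knockdown and 46.4% ± 0.59 in scrambled cells.

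SRF was higher, and none of its cofactor genes passed as higher. SRF had 139, 162 and 141 CPM in knockdown and 79.1, 81.9 and 74.1 CPM in scrambled libraries, 1.88-fold (log2 fold change 0.91, SE 0.086, adjusted p = 2.2e-06). MKL1 was lower, at 78.1, 76.5 and 75.9 CPM in knockdown against 98.0, 94.1 and 92.4 CPM in scrambled libraries (log2 fold change −0.30, SE 0.076, adjusted p = 0.004). MKL2 did not pass (76.9, 87.3 and 71.6 CPM in knockdown, 99.1, 97.0 and 79.4 CPM in scrambled libraries, adjusted p = 0.083), but did as lower without knockdown replicate 2 (0.035), without scrambled replicate 3 (0.016) or with library totals in place of TMM (0.031), in a range of 0.0022 to 0.24 over all alternatives.

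MYOCD, the cofactor of smooth and heart muscle, was near the limit of detection. It had 31, 36 and 2 reads in the knockdown libraries and 88, 78 and 44 reads in the scrambled libraries, or 1.19 ± 0.958 CPM in knockdown and 3.24 ± 0.811 CPM in scrambled libraries. Knockdown replicate 3 stood apart from its group. The fitted log2 fold change of −1.44 (SE 0.60) did not pass (adjusted p = 0.064), and passed without that library (log2 fold change −0.90, adjusted p = 0.018) or without knockdown replicate 2 (log2 fold change −1.93, adjusted p = 0.046), in a range of 0.0056 to 0.21 over all alternatives.

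**Figure D4:**
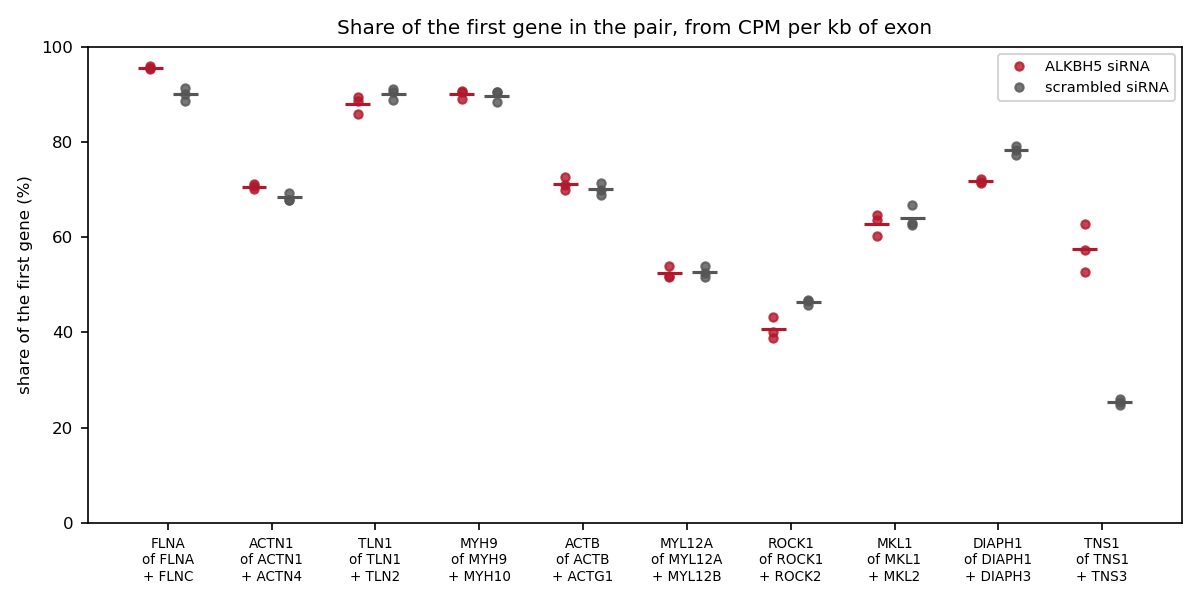
Share of the first gene in 10 pairs of related members, from CPM per kilobase of exon, in each library (points) with group means (lines). The groups do not overlap for FLNA, ACTN1, ROCK1, DIAPH1 and TNS1. The widest gap is that of TNS1, 57.6% in knockdown and 25.4% in scrambled cells.

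By level per kilobase of exon, ACTB led in both groups, with 1249.6 ± 22.0 CPM per kilobase in knockdown and 2069 ± 149 in scrambled cells. FLNA took rank 2 in knockdown cells (669 ± 20.8) and rank 7 in scrambled cells (265 ± 15.7), and ACTN1 rank 4 in knockdown and rank 10 in scrambled cells. ACTG1 took rank 5 in knockdown cells (506 ± 41.8) and rank 2 in scrambled cells (881 ± 53.9), and MYH9 rank 21 in knockdown and rank 11 in scrambled cells. In the scrambled cells FLNA did not stand apart from RHOA (275 ± 9.03) or PFN1 (235 ± 28.3), its neighbours in the order. PDLIM5, though most changed, was of low level in scrambled cells, at rank 49 with 3.39 ± 0.071 CPM per kilobase, and took rank 31 in knockdown cells with 30.6 ± 2.67. Exon lengths came from GENCODE 29, and a gene with long transcripts that the cells do not use is understated on this scale. LPP, with 22863 exon bases, has the longest exon sum of the members.

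Replicates were close. The median coefficient of variation of the 51 tested members was 8.71% in knockdown libraries and 6.11% in scrambled libraries, against 10.3% and 8.10% over all tested genes. Knockdown replicate 2 was the highest of its group in 31 of 51 members, while the scrambled libraries shared that place as 16, 17 and 18. The same count was not made over all tested genes, so it is not read as a trait of the members.

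Other genes of the same machinery were also counted, in lists drawn up with earlier results of these data known, so these counts too are a description. Among 26 further plaque genes there were 12 higher and 8 lower, beside 30.8% of all tested genes in each direction. LIMS1 and LIMS2 encode PINCH proteins, the partners of ILK and parvin. LIMS1 had 269.8 ± 28.0 CPM in knockdown and 71.5 ± 3.96 CPM in scrambled libraries, and LIMS2 50.6 ± 1.96 CPM in knockdown and 8.37 ± 0.765 CPM in scrambled libraries. The kinase gene PAK1 (62.1 ± 2.21 CPM in knockdown, 125 ± 6.74 CPM in scrambled libraries) and the adaptor gene NEDD9 (22.8 ± 3.45 CPM in knockdown and 49.5 ± 2.88 CPM in scrambled libraries) were lower. The number lower in this list fell to 5 without scrambled replicate 1 and to 5 without scrambled replicate 2.

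The 27 tested genes of further crosslinking, bundling and capping proteins comprised 14 higher and 6 lower, next to 30.8% each way in the whole table. FSCN1, the bundler fascin, was 3.54-fold higher (1104 ± 135 CPM in knockdown, 312 ± 27.1 CPM in scrambled libraries). TPM4, a tropomyosin, was 3.26-fold higher, opposite to TPM3. MARCKSL1 and SVIL, the gene of supervillin, were lower, with log2 fold changes of −0.74 and −0.44.

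The Arp2/3 complex and the WAVE proteins that activate it make branched actin. Of 19 such genes 14 were higher and 3 lower, with a median log2 fold change of 0.38. Over all tested genes the shares were 30.8% each way and the median 0.01. In the lists of further plaque, crosslinking, actin turnover and SRF partner genes the median was 0.09, 0.28, 0.10 and 0.14. ACTR3, a core subunit, had 698 ± 80.3 CPM in knockdown and 221 ± 10.5 CPM in scrambled libraries. WASF3 rose 3.00-fold, while WASF2, its relative, and the subunit gene ARPC4 were lower (log2 fold changes −1.01 and −0.43).

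Of 18 actin turnover genes 8 were higher and 7 lower, where all tested genes had 30.8% each way. TWF1, the monomer-binding twinfilin, rose 5.83-fold, and CFL2, the second cofilin, 2.18-fold. PFN2, the second profilin, was lower while PFN1 was higher, with 94.7 ± 11.3 CPM in knockdown and 271 ± 9.15 CPM in scrambled libraries, and CAP2 had a log2 fold change of −0.98.

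Of 9 tested genes of further SRF partners and cofactor regulators, 3 were higher and 3 lower, close to the 30.8% each way of all tested genes. MICAL2, an enzyme that oxidises actin and is known to free MKL proteins in the nucleus, was 3.32-fold higher (203 ± 13.1 CPM in knockdown, 61.1 ± 2.28 CPM in scrambled libraries). Of the PHACTR genes, whose proteins bind monomeric actin through the same kind of motif as MKL1, PHACTR3 was higher and PHACTR4 and PHACTR2 were lower (log2 fold changes 1.77, −1.26 and −0.44).

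**Figure D5:**
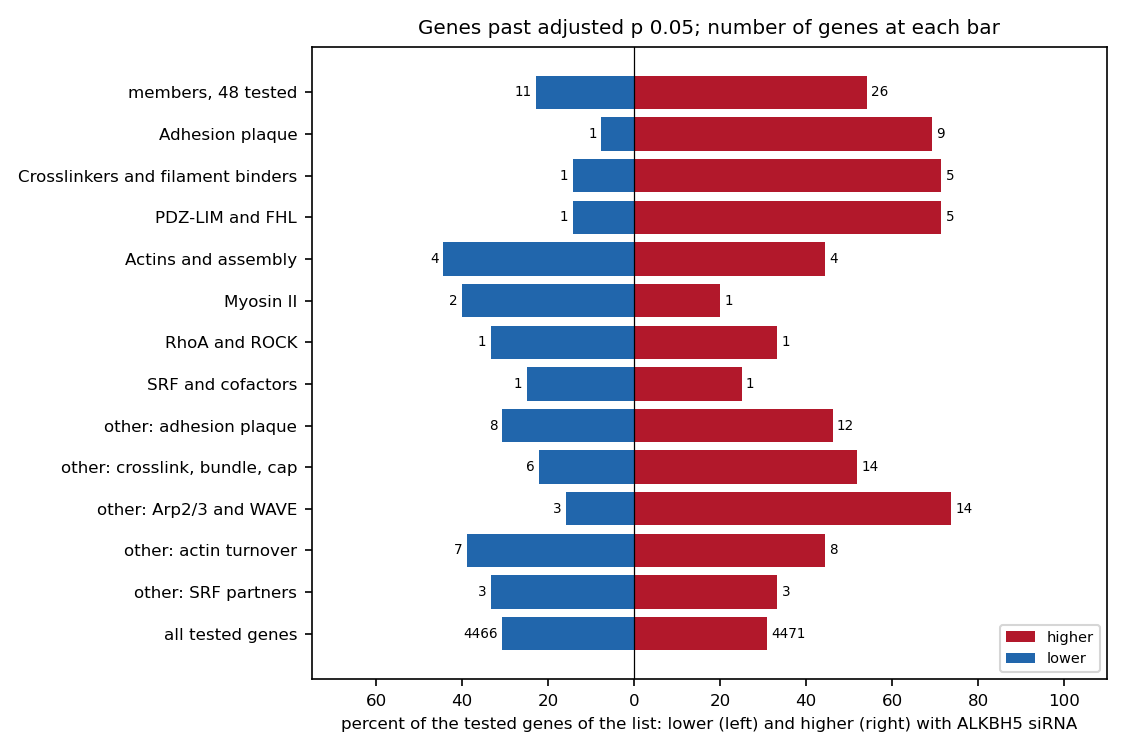
Percent of the tested genes of each list that were lower (left) or higher (right) with ALKBH5 siRNA at an adjusted p of 0.05, with the number of genes at each bar. VCL, FLNA and PDLIM5 are left out. All tested genes, at the bottom, divide evenly into 4471 higher and 4466 lower.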

How the data were processed

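Counts of reads per gene symbol were used as the authors deposited them, with no normalisation. Per the submitters' processing notes the tools were HTSeq, TopHat2, SAMtools and CASAVA 1.8.2, with build hg19. The settings, the annotation and the strand option were not found in the sources used here. The 6 files of single samples held the values of the series table, of which 0 columns matched no sample. The 5 HTSeq summary entries stayed out of library sizes and tests.

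Tests were run over the whole table with edgeR 4.0.16 in R 4.3.3 (filterByExpr, TMM, robust glmQLFit, glmQLFTest, 2-sided, Benjamini-Hochberg over 14504 genes, threshold 0.05), with glmTreat for 1.5-fold. The test was run on simulated data first. A gene at 1 CPM rests on 19.0 to 24.0 reads per library. Replicates differed by more than counting noise (chi-square per degree of freedom 5.96 to 16.3), so none was the same library deposited again. Exon lengths, GC content and overlaps came from GENCODE 29 (GRCh38) and were never joined to hg19 coordinates. Promoters came from RefSeq (GRCh38.p14). Heat map values used a pseudocount of 0.1 CPM.

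The members and lists were chosen with earlier results of these data known. A list of further genes and a marker gene are not reported here. Named genes were all members, ALKBH5, and up to 2 genes with the smallest adjusted p in each direction of each other list reported. Marker genes, overlapping genes and MYH14 are named beside these, chosen after their values were seen. Of 52 members, 23 share exon bases with another annotated gene and 9 with a gene of the count table. Of these, 2 share over 500 bases, VCL and ACTN4, and CAPN12, which overlaps ACTN4, had at most 1 read. Alternatives were RLE scaling, library totals, no filter, 1 CPM in 3 libraries, DESeq2 1.42.0, a replicate block, each library left out, and, added after seeing the data, a GC and length correction.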

Additional observations from a re-analysis of the deposited data

Results flagged for a closer look

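Reads placed uniquely but outside genes, which enter no comparison, came to 17.9% ± 0.66 of unique placements with ALKBH5 siRNA and 15.3% ± 0.23 with scrambled siRNA (SD, n = 3 each). The result is listed because the share was above the level of the control samples in every knockdown library. Groups of 3 libraries are too small for a check for single outlying libraries.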

How the results depend on the processing

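Across RLE scaling, library totals, both filters, DESeq2, the replicate block, 6 fits without 1 library and the GC and length correction, members higher numbered 28 to 31 (29 in the main analysis) and members lower 10 to 13 (11). The ALKBH5 log2 fold change stayed between −3.16 and −2.98. By the test against 1.5-fold, 18 or 19 members passed as higher. By the same test 4 members passed as lower, with 2 to 3 when a library was left out. The number lower was 2 under the GC and length correction and 6 with library totals. The cause was not tested. Leaving out a library gave 28 to 31 members higher, 10 to 13 lower, and 3899 to 4391 genes higher and 3979 to 4325 lower over the table. Library totals moved the median of all genes to −0.06, and 44.6% of calls were then higher, against 50.0%. With the replicate block, 30 members were higher and 13 lower, and 18 and 5 passed the test against 1.5-fold. The block added calls for TLN1 (adjusted p = 0.015), MKL2 (0.018) and MYOCD (0.0056). The numbers were not taken as pairs, since the labels tie them to nothing shared and 1 of the same-numbered correlations of deviations from the group means (0.33, 0.06 and 0.35) was under 0.1. Every sample correlated best with its own number, except scrambled replicate 2, which did so with knockdown replicate 1 (0.077). The 1.5-fold test was not run with DESeq2. No member reversed its direction as a call. The GC and length correction, chosen after seeing the data, passed MYL12A (adjusted p = 0.015), MYL12B (0.0030), MKL2 (0.0022) and MYOCD (0.046), and lost ENAH (0.16). The Spearman correlation of log2 fold change with exon length was 0.095 over 51 members and 0.055 over 13802 genes. Depth limits TES and MYOCD.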
